A study of Mus musculus with 19 samples.

Results

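Axon growth depends on actin filaments, and the genes described here make actin, assemble it into filaments, take the filaments apart and move along them. A group of 60 protein-coding genes was chosen by gene name alone, from the families of the Arp2/3 subunits (Arpc, Actr2 and Actr3), cofilins, tropomyosins, myosins and their light chains, thymosins, profilins, WAVE proteins and capping proteins, together with the actins Actb and Actg1, Gsn, Enah, Evl, Wasl, Limk2, Ssh1, Cap1 and the membrane linkers Ezr, Msn and Rdx. They are 60 of the 12629 genes with values. The same rule also names the Diaph formins and Limk1, which were not analysed here.

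The data are RNA-seq of cells that carried a green fluorescent protein and were sorted for it by FACS. The study describes them as DRG neurons, the sensory neurons of the dorsal root ganglia. GFP-naive (n = 5) and GFP-crush (n = 4) libraries came from DRGs injected with AAV5-fGFP, driven by the CMV promoter. α9k1-naive (n = 6) and α9k1-crush (n = 4) libraries came from DRGs injected with both AAV5-α9-V5 (the α9 integrin, CAG promoter) and AAV5-kindlin1-GFP (CMV promoter), of which only kindlin-1 carried the GFP used in the sort. Injections were made into the left C5–C8 DRGs, the crush groups also had their dorsal roots crushed at that time, and tissue was taken 8 weeks later. The 4 DRGs of an animal were pooled, and part of the transduced neurons carried only 1 of both α9k1 viruses. The study's methods name adult male Lewis rats, while the sample labels name C57BL/6 mice, and the reads were aligned to the mouse genome.

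The introduced genes were looked at first. The kindlin-1 gene Fermt1 had deposited log2 values of 0.62 ± 0.16 (SD) in GFP-naive, 5.58 ± 0.33 in α9k1-naive, 0.57 ± 0.12 in GFP-crush and 7.17 ± 0.66 in α9k1-crush, without overlap between α9k1 and GFP libraries. The α9 integrin gene Itga9 had 2.11 ± 0.25, 3.87 ± 0.92, 1.51 ± 0.44 and 6.59 ± 0.82 in this order, and α9k1-naive replicate 2 (2.38) lay inside the GFP-naive range of 1.77 to 2.40. Libraries held 36.4 to 87.6 M read pairs, and library medians lay between 4.30 and 4.48. All 12 DRG neuron markers examined were measured, and none had a group mean under 1. Markers of other cells were measured as well, with group means under 1 for only 2 of 6 mural and smooth muscle markers, both in α9k1-naive. For the 15 markers of satellite glia and Schwann cells the log2 of the summed level had medians of 16.0, 16.5, 15.4 and 14.9, in the order above. Those of the 12 DRG neuron markers were lower in every group, at 13.6, 12.7, 14.1 and 14.3. Apoe, on the glial list, alone had means of 15.6, 16.5, 14.7 and 14.3. The part of other cells in the members' values was not tested. In such sorted bulk samples, fewer cells of a type and less RNA per cell cannot be told apart.

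Actin monomers are held in reserve by thymosins and profilins. The Arp2/3 complex, switched on by WAVE proteins and N-WASP, adds branches to existing filaments, and Ena/VASP proteins lengthen them. Cofilins and gelsolin cut filaments, tropomyosins coat them, ERM proteins tie them to the membrane and myosins pull on them or carry cargo along them. In a growth cone these proteins act together to push the membrane forward and to pull the axon after it.

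Many actin and muscle genes are known targets of SRF (serum response factor), which binds a 10-letter element named the CArG box. As the letters of promoters can be set beside the expression values below, the 250 bases before the transcription start in mouse RefSeq (build GRCm38.p6) were searched for it. The element reads the same way on both strands. A promoter was given for 55 of the 60 members, and Actb, Actr3b, Arpc5l and Myh11 were among those without one. A CArG box was present in 6 of the 55 members (10.9%), namely Myl9, Arpc4, Myo1e, Myl3, Myl6 and Actg1, and in 126 of 8366 genes (1.51%) of the deposited table with a promoter. Over all 27025 genes with a RefSeq promoter the share was 1.62%. Such a match describes the letters and is no evidence of binding, and the mouse sequence would not be the animals' own if they were rats. The 4 members below and Srf itself are shown because the results return to them, with the CArG box in capitals and without the bases that lie inside the gene in the deposited coordinates. They are Actg1 (chr11:120348543-120348745, minus strand), Arpc4 (chr6:113377863-113378112, plus strand), Myo1e (chr9:70207100-70207349, plus strand), Myl9 (chr2:156775214-156775419, plus strand) and Srf (chr17:46556163-46556412, minus strand).
Actg1: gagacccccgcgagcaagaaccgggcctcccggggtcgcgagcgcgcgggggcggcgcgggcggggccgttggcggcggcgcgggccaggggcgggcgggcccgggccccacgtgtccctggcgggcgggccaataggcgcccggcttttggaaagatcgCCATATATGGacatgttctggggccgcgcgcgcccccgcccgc
Arpc4: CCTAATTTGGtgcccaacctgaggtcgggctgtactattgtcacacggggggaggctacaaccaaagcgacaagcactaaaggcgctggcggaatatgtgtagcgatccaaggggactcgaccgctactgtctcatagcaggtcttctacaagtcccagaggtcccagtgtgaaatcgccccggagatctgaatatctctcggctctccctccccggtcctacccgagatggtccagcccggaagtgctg
Myo1e: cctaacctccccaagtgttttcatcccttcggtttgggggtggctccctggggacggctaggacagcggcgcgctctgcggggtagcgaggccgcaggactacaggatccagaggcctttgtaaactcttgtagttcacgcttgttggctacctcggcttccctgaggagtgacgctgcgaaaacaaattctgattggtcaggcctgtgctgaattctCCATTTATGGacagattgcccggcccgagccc
Myl9: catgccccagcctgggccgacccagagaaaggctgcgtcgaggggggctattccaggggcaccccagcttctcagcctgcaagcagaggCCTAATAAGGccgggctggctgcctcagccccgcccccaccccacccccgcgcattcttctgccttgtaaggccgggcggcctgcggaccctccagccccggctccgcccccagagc
Srf: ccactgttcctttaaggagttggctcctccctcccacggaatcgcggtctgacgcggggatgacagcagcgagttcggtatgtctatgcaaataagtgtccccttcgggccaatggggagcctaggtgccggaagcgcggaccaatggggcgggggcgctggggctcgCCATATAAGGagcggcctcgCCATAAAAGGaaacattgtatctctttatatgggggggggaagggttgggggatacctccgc
The first base of the box lay 90 bases before the RefSeq start of Actg1, 250 before that of Arpc4, 32 before that of Myo1e and 161 before that of Myl9. Srf had 2 boxes, at 82 and 62 bases before its start.

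Of the 60 members, the tropomyosin Tpm2 and the unconventional myosins Myo1g, Myo3a and Myo10 had the widest spans of group means. The within-group SD of the deposited log2 values had a median over members of 0.14 in GFP-naive, 0.17 in α9k1-naive, 0.20 in GFP-crush and 0.20 in α9k1-crush, beside 0.20, 0.23, 0.24 and 0.21 over all genes. Differences between groups are given below as log2FC ± SE at equal covariates, which means that the fit held 3 summaries of library quality equal, and a gene is called higher or lower when its limma p, adjusted over all 12629 genes, is under 0.1. Of the 60 members, 32 were called in at least 1 of the 4 comparisons and 28 in none, and without covariates 56 were called in at least 1. The share of all genes called in at least 1 was not counted, so these counts describe the members only. Shares of all genes in each comparison are given below.

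**Figure D1:**
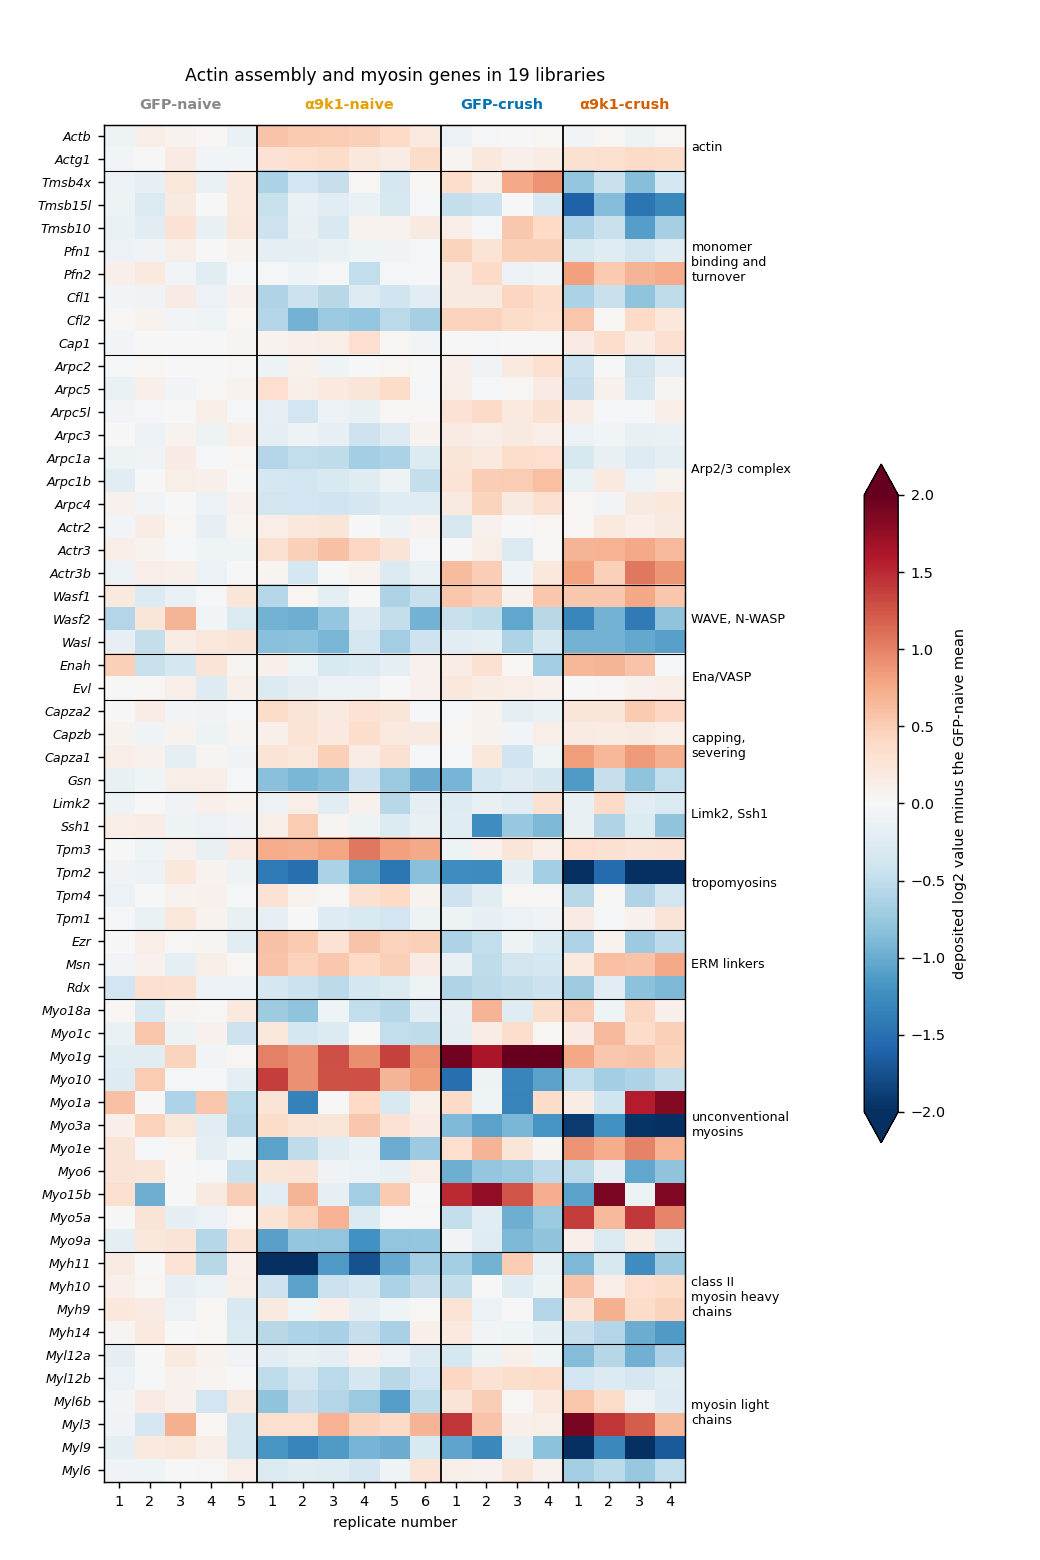
Each row is 1 of 59 of the 60 members, grouped by role, and each column is 1 of the 19 libraries, labelled by replicate number. The colour gives the deposited log2 value minus the GFP-naive mean (red higher, blue lower, colours end at 2 log2 units). Myo1g is red in all 4 GFP-crush libraries, and Tpm2 and Myl9 are blue in all 4 α9k1-crush libraries.

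The groups without crush were compared first, with α9 integrin and kindlin-1 or with GFP (α9k1-naive versus GFP-naive). In this comparison 7 of 60 members were higher (11.7%), where 11.4% of all genes were, and 13 were lower (21.7%), where 17.6% of all genes were. Both cytoplasmic actins, the tropomyosin Tpm3 and ezrin were among those that rose, while both WAVE genes and the N-WASP gene Wasl, 3 Arp2/3 subunits and the cofilin Cfl2 fell. The median log2FC was -0.07 over members and -0.08 over all genes. With libraries centred on their medians the counts were 9 higher and 11 lower, beside 13.1% and 13.7% of all genes.

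Markers of several cell types moved in this comparison as well. All 6 endothelial markers were lower (median log2FC -1.41), and the log2 of their summed level ran from 6.70 to 7.30 in GFP-naive and from 4.76 to 6.25 in α9k1-naive. Of the 6 fibroblast markers 5 were lower and none higher (median -1.69), with sums from 9.44 to 9.78 and from 6.79 to 8.29. Of the 15 markers of satellite glia and Schwann cells 6 were lower and 3 higher (median -0.18), while their sum was higher in α9k1-naive (16.3 to 16.8) than in GFP-naive (15.8 to 16.2). Of the 12 DRG neuron markers 4 were lower and 1 higher (median -0.25), with sums from 13.3 to 13.7 in GFP-naive and from 12.6 to 13.0 in α9k1-naive. The part of these cells in the members' values was not tested.

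Actb (chr5:142903115-142906754, GRCm38), which makes cytoplasmic β-actin, had deposited log2 values of 10.16, 10.37, 10.33, 10.29 and 10.12 in GFP-naive. In α9k1-naive its values ran from 10.45 over a median of 10.75 to 10.82, so that the libraries of both groups did not overlap. In GFP-crush Actb had values of 10.14, 10.23, 10.25 and 10.30, and in α9k1-crush 10.21, 10.29, 10.15 and 10.28. Only the α9k1-naive libraries stood above the other 3 groups, which covered the same range. The difference between α9k1-naive and GFP-naive was 0.35 ± 0.10 for Actb (adjusted p = 0.0194). For Actg1 (chr11:120345690-120348542), which makes γ-actin, the GFP-naive values were 9.87, 9.94, 10.09, 9.86 and 9.87. The α9k1-naive values of Actg1 went from 10.07 over a median of 10.23 to 10.30. One library of GFP-naive reached into that range, and the difference was 0.30 ± 0.09 (adjusted p = 0.0267). After crush Actg1 had values of 9.98, 10.13, 10.03 and 10.08 with GFP and of 10.23, 10.24, 10.31 and 10.29 with α9k1. Unlike those of Actb, its α9k1-crush values lay above every GFP-crush library and near the upper end of its α9k1-naive range, and the difference between the crush groups was not called (0.17 ± 0.20, adjusted p = 0.863). Without α9k1-naive replicate 6, Actg1 was no longer called (0.24, adjusted p = 0.22). Actb and Actg1 are close copies of each other, so that the share of reads counted for each is uncertain.

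Tpm3 (chr3:90072649-90100902), a tropomyosin, had the smallest p of the 60 members in this comparison. Its values were 5.68, 5.60, 5.76, 5.54 and 5.85 in GFP-naive and ran from 6.40 over a median of 6.46 to 6.74 in α9k1-naive, so that the lowest α9k1-naive library stood above every GFP-naive one. After crush, Tpm3 had values of 5.58, 5.77, 5.93 and 5.82 with GFP and of 6.02, 6.00, 5.95 and 5.97 with α9k1. These 4 α9k1-crush libraries lay close together, above those of GFP-crush and below those of α9k1-naive. The difference without crush was 0.89 ± 0.10 (adjusted p = 2.39e-05). Ezr (chr17:6738041-6782784), which encodes ezrin, had GFP-naive values of 5.66, 5.77, 5.67, 5.69 and 5.43. In α9k1-naive the Ezr values ran from 5.94 over a median of 6.15 to 6.23, all above the GFP-naive libraries, and the difference was 0.61 ± 0.18 (adjusted p = 0.0233).

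Myo10 (chr15:25622525-25813673), a motor that travels to the tips of filopodia, had values of 3.15, 3.93, 3.38, 3.38 and 3.23 in GFP-naive. Its α9k1-naive values ran from 4.09 over a median of 4.51 to 4.80, above every GFP-naive library. The difference was 0.75 ± 0.25 (adjusted p = 0.0443), and 16 of 19 fits that each left out 1 library called it, with adjusted p values of 0.114, 0.133 and 0.262 without GFP-naive replicate 1, GFP-naive replicate 4 and α9k1-naive replicate 6. Tmsb10, a thymosin that binds monomers, was called higher by 0.33 ± 0.11 (adjusted p = 0.0493), but its means were 10.83 ± 0.24 and 10.74 ± 0.23 (SD, n = 5 and 6), and without covariates its difference was -0.09. It was the only one of the 20 called members whose direction turned without covariates. It was also not called with quantile-normalized libraries (0.23, adjusted p = 0.207), or without GFP-naive replicate 1 (0.28), 2 (0.31) or 4 (0.31).

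Among the members that fell, Cfl2 (chr12:54858817-54862877), the muscle-type cofilin that severs filaments, had the smallest p. Its values were 6.42, 6.48, 6.35, 6.31 and 6.44 in GFP-naive and ran from 5.45 over a median of 5.69 to 5.86 in α9k1-naive, with no overlap. The difference was -0.72 ± 0.13 (adjusted p = 0.0013). Gsn (chr2:35256380-35307892), which encodes the severing and capping protein gelsolin, had GFP-naive values of 8.60, 8.66, 8.87, 8.88 and 8.71. In α9k1-naive its values ran from 7.74 over a median of 7.90 to 8.33, again below every GFP-naive library. Gsn differed by -0.80 ± 0.20 (adjusted p = 0.00988), and by -0.58 (adjusted p = 0.168) without α9k1-naive replicate 6.

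The WAVE and N-WASP genes among the members, which encode activators of the Arp2/3 complex, were lower in α9k1-naive. Cttn, which encodes the activator cortactin and is no member, was called higher (0.34 ± 0.13, adjusted p = 0.08), in 12 of 19 fits that each left out 1 library. Wasl, which encodes N-WASP, had a mean of 5.69 ± 0.31 in GFP-naive and of 5.01 ± 0.24 in α9k1-naive, with a difference of -0.59 ± 0.16 (adjusted p = 0.0157). The WAVE gene Wasf2 differed by -0.74 ± 0.22 (adjusted p = 0.0286), and Wasf1 by -0.49 ± 0.15 (adjusted p = 0.0338). Of the 10 genes of the complex itself, 3 were lower and none was higher, where 17.6% of all genes were lower, and with median-centred libraries 1 was lower, beside 13.7% of all genes. Arpc1a (chr5:145083830-145108761) had values of 7.55, 7.59, 7.82, 7.62 and 7.70 in GFP-naive and from 6.97 over a median of 7.11 to 7.38 in α9k1-naive. No α9k1-naive library reached the GFP-naive range, and the difference was -0.36 ± 0.09 (adjusted p = 0.0127). Arpc4 differed by -0.32 ± 0.11 (adjusted p = 0.0427) and missed the threshold with median-centred libraries (-0.27, adjusted p = 0.121). Arpc1b was close to the threshold (-0.31 ± 0.13, adjusted p = 0.0985), missed it with median-centred libraries (-0.26, adjusted p = 0.16) and was called in only 5 of 19 fits that each left out 1 library, in which it ran from -0.37 to -0.11, the latter without α9k1-naive replicate 6. Wasf2 was also not called without that library (-0.52, adjusted p = 0.278).

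Myosin genes moved in both directions. Myo1g and Myo10 were higher, and Myo9a, a motor with a domain that turns off a small GTPase, and Myo1e, a membrane-bound class I motor, were lower. Myo9a had means of 3.35 ± 0.38 in GFP-naive and 2.45 ± 0.19 in α9k1-naive, and differed by -0.91 ± 0.25 (adjusted p = 0.0184). Myo1e, whose promoter with a CArG box is printed above, had means of 4.76 ± 0.16 and 4.15 ± 0.38 and differed by -0.75 ± 0.22 (adjusted p = 0.022). For Myh10, the heavy chain of non-muscle myosin IIB, the difference was -0.54 ± 0.18 (adjusted p = 0.0419), and without α9k1-naive replicate 6 it was -0.65 with an adjusted p of 0.105. The regulatory light chain gene Myl12b had means of 8.47 ± 0.08 and 8.02 ± 0.10 and differed by -0.40 ± 0.08 (adjusted p = 0.00343). Another annotated gene of the same name shares 26.7% of the exon bases of Myl12b, so that its value is uncertain. The last of the 13 was the light chain Myl6b (-0.60 ± 0.21, adjusted p = 0.05), which lay outside the rule for named genes and was not called without GFP-naive replicate 2 (-0.52), α9k1-naive replicate 6 (-0.68) or GFP-crush replicate 3 (-0.50).

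**Figure D2:**
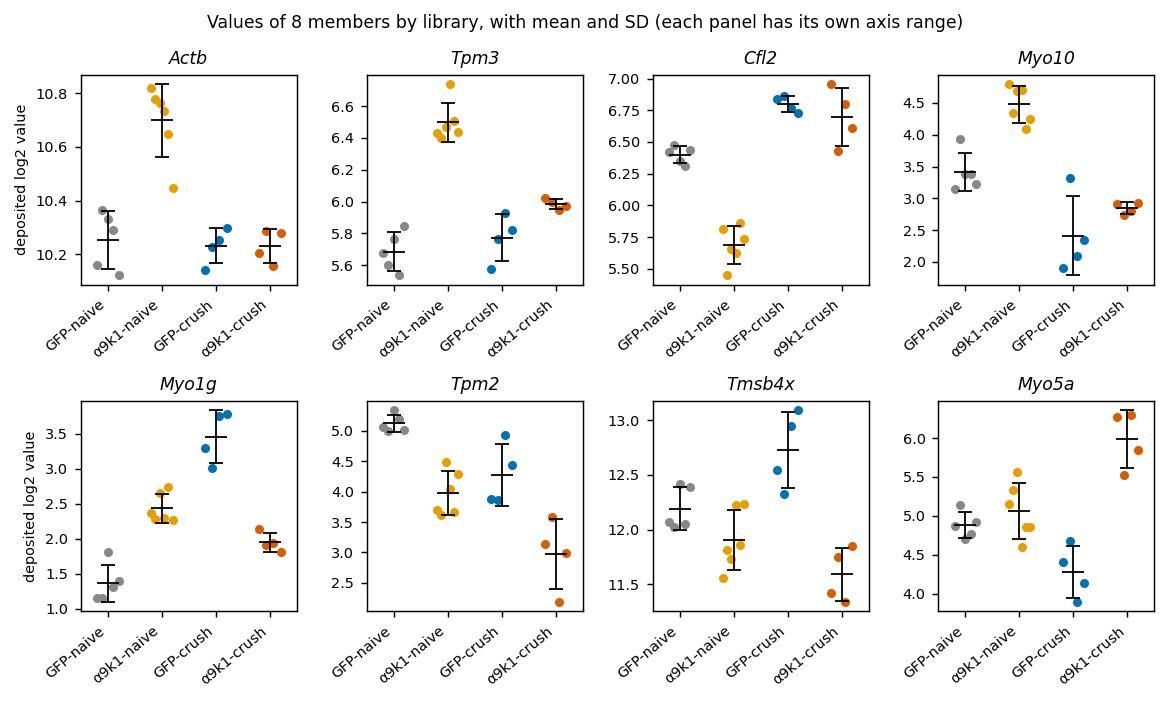
Each panel shows 1 gene with its deposited log2 value in every library (points) and the mean and SD of each group (bars), and the axis range differs between panels. Actb and Tpm3 were highest in α9k1-naive, Cfl2 was lowest there, and Myo1g was highest in GFP-crush, with values from 3.0 to 3.78.

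Dorsal root crush with GFP alone was compared next, as GFP-crush versus GFP-naive. Here 8 of 60 members were higher (13.3%), where 7.39% of all genes were, and 10 were lower (16.7%), where 15.7% of all genes were. The monomer-binding genes Pfn1 and Tmsb4x, the Arp2/3 subunits Arpc1b and Arpc4, Wasf1 and Myo1g were among those that rose, and 5 of 12 unconventional myosins with the smooth-muscle-type genes Tpm2 and Myl9 were among those that fell. The median log2FC was 0.05 over members and -0.08 over all genes. The balance depended on the scaling, since libraries centred on their medians gave 15 higher and 8 lower members, beside 14.5% and 9.34% of all genes. Among markers, 5 of 6 of fibroblasts and 7 of 15 of satellite glia and Schwann cells were lower (median log2FC -1.12 and -0.43), with 0 and 1 higher, 7 of 12 of DRG neurons were higher and 1 lower (median 0.51), and none of the 6 endothelial markers was called.

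Pfn1 (chr11:70651850-70654644) encodes profilin, which delivers monomers to growing filament ends. It had values of 9.51, 9.56, 9.74, 9.62 and 9.69 in GFP-naive and of 10.08, 9.90, 10.11 and 10.10 in GFP-crush. All 4 GFP-crush libraries stood above the GFP-naive ones, and the difference was 0.36 ± 0.08 (adjusted p = 0.0076). The thymosin gene Tmsb4x (chrX:167207093-167209315) had values of 12.07, 12.03, 12.42, 12.05 and 12.39 in GFP-naive and of 12.55, 12.33, 12.94 and 13.09 in GFP-crush. One GFP-crush library lay within the GFP-naive range, and the difference of 0.39 ± 0.14 (adjusted p = 0.0644) was called in 12 of 19 fits that each left out 1 library, where it ran from 0.27 (without GFP-crush replicate 4) to 0.48. It was not called with quantile-normalized libraries (0.21, adjusted p = 0.407).

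Cfl2 had GFP-crush values of 6.84, 6.86, 6.77 and 6.73, all above its GFP-naive values, and differed by 0.39 ± 0.13 (adjusted p = 0.0655). In the fits that each left out 1 library the difference of Cfl2 kept between 0.36 and 0.41 but was called in 13 of 19. Arpc1b (chr5:145114215-145130705) had values of 6.71, 6.93, 7.05, 7.04 and 6.95 in GFP-naive and of 7.21, 7.42, 7.44 and 7.53 in GFP-crush, with no overlap. It differed by 0.45 ± 0.13 (adjusted p = 0.0302), although 18.2% of its exon bases are shared with Pdap1 on the opposite strand, and the libraries do not mark strand. Wasf1, which encodes WAVE1, had means of 5.05 ± 0.21 and 5.46 ± 0.22 and differed by 0.69 ± 0.15 (adjusted p = 0.0102). Arpc4 differed by 0.30 ± 0.11 (adjusted p = 0.0733) and was called in 12 of 19 fits that each left out 1 library, with 0.22 as the lowest value (without GFP-crush replicate 2). It shares 12.2% of its exon bases with Ttll3. Myl12b was higher by 0.32 ± 0.08 (adjusted p = 0.0223), with means of 8.47 ± 0.08 and 8.82 ± 0.05, and narrowly missed the threshold with quantile-normalized libraries (0.23, adjusted p = 0.104).

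Cfl2, Arpc1b, Arpc4, Wasf1 and Myl12b, higher here, were among the members that were lower in α9k1-naive. Both comparisons use the same GFP-naive libraries and are not independent, and an error in those libraries would move both differences the same way. Wasf2 was lower in both, by -0.76 ± 0.23 (adjusted p = 0.0366) after crush, and was not called there without GFP-naive replicate 2 (-0.69) or GFP-naive replicate 3 (-0.56). Myo1g was higher in both, and Myo10 was higher in α9k1-naive and lower in GFP-crush.

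Myl9 (chr2:156775420-156781658), a regulatory light chain of smooth muscle and non-muscle myosin, had GFP-naive values of 6.33, 6.71, 6.74, 6.63 and 6.16. In GFP-crush its values were 5.46, 5.23, 6.36 and 5.69, of which 3 lay below every GFP-naive library. The difference was -1.26 ± 0.21 (adjusted p = 0.00158). The tropomyosin gene Tpm2 (chr4:43514711-43523765) had values of 5.06, 5.01, 5.34, 5.19 and 5.02 in GFP-naive and of 3.87, 3.87, 4.93 and 4.44 in GFP-crush. All its GFP-crush values were lower, and the difference was -1.15 ± 0.27 (adjusted p = 0.0135). Replicate 3 of GFP-crush was the highest of its group for both genes. The smooth muscle heavy chain gene Myh11 was at -0.78 ± 0.31 and was not called (adjusted p = 0.1003).

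Markers of mural and smooth muscle cells moved with these genes. In GFP-crush 5 of the 6 measured markers of that list were lower, and the log2 of their summed level ran from 4.99 to 6.41, beside 6.45 to 6.86 in GFP-naive. Acta2, smooth muscle actin, had values of 1.90, 1.79, 3.69 and 1.93 in GFP-crush, where replicate 3 was again the highest, and from 3.19 to 3.61 in GFP-naive. In α9k1-naive 4 of the 6 were lower, the summed level ran from 4.90 to 6.03, and Tpm2, Myl9 and Myh11 were at -0.62 ± 0.27, -0.39 ± 0.21 and -0.65 ± 0.31, none of them called (adjusted p = 0.117, 0.201 and 0.146). Without covariates all 3 were called, at -1.15, -0.98 and -1.60. In α9k1-crush the summed level ran from 4.71 to 5.81. The part of such cells in the values of Tpm2, Myl9 and Myh11 was not tested.

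Of the 12 unconventional myosins, 5 were called lower after crush and 1 higher, where lower calls also outnumbered higher ones over all genes (15.7% and 7.39%). With median-centred libraries 4 were lower and 2 higher, beside 9.34% and 14.5% of all genes. Myo10 had GFP-crush values of 1.91, 3.31, 2.09 and 2.34, of which replicate 2 alone reached the GFP-naive range. The difference of Myo10 was -0.98 ± 0.25 (adjusted p = 0.0191). Myo3a (chr2:22227503-22618252), a motor with a kinase domain known from the hair cells of the ear, had values of 4.13, 4.50, 4.27, 3.81 and 3.47 in GFP-naive and of 3.16, 2.96, 3.12 and 2.85 in GFP-crush. Every GFP-crush library was lower, and the difference was -1.04 ± 0.24 (adjusted p = 0.0124). Myo6, which moves towards the minus end of filaments, differed by -0.83 ± 0.22 (adjusted p = 0.0206) between means of 4.45 ± 0.29 and 3.70 ± 0.18. Myo5a, a carrier of vesicles, differed by -0.52 ± 0.17 (adjusted p = 0.0544) and was not called with median-centred (-0.38, adjusted p = 0.165) or quantile-normalized libraries (-0.41, adjusted p = 0.136), nor in 4 of 19 fits that each left out 1 library, with the smallest difference, -0.44, without α9k1-naive replicate 6.

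The other 2 members that fell were Rdx and Ssh1. The linker gene Rdx, which encodes radixin, had means of 5.03 ± 0.30 in GFP-naive and 4.52 ± 0.07 in GFP-crush, with a difference of -0.68 ± 0.17 (adjusted p = 0.0192). Without GFP-naive replicate 2 it was -0.52 with an adjusted p of 0.107. The cofilin phosphatase gene Ssh1 had means of 3.64 ± 0.13 and 2.85 ± 0.42 and a difference of -0.71 ± 0.24 (adjusted p = 0.0606). It was not called with median-centred libraries (-0.57, adjusted p = 0.119), and without GFP-crush replicate 2 it was -0.43.

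**Figure D3:**
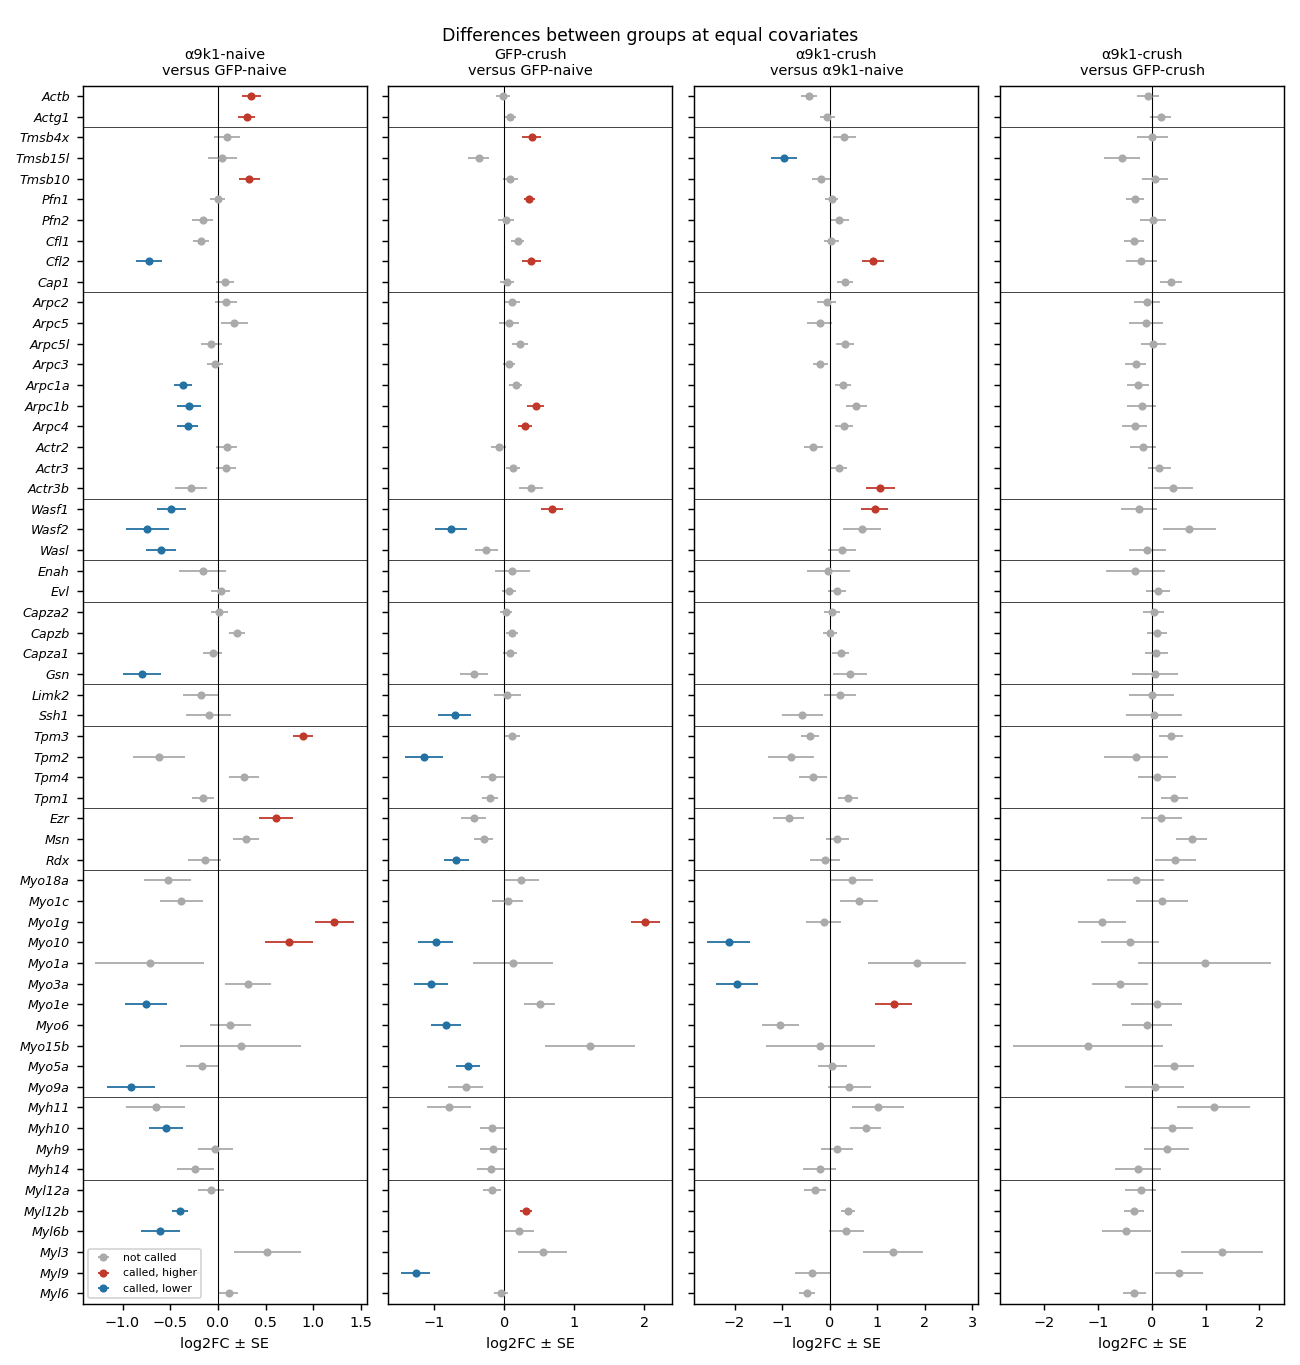
Each row is 1 of 59 of the 60 members in the order of the heat map, and each panel is 1 comparison. Points give log2FC and bars its SE at equal covariates, red and blue for genes called higher and lower and grey for the others. The bars are widest in the panel of α9k1-crush versus GFP-crush, where no member was called.

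Myo1g (chr11:6506548-6520965), a class I motor best known from blood cells, moved in both comparisons with GFP-naive. Its values were 1.16, 1.16, 1.81, 1.31 and 1.39 in GFP-naive, and they ran from 2.27 over a median of 2.33 to 2.74 in α9k1-naive. In GFP-crush the Myo1g values were 3.29, 3.0, 3.76 and 3.78, and in α9k1-crush 2.14, 1.91, 1.93 and 1.82. The 4 groups did not overlap, in the order GFP-naive, α9k1-crush, α9k1-naive and GFP-crush. The difference was 1.22 ± 0.20 (adjusted p = 0.000595) for α9k1-naive versus GFP-naive. For GFP-crush versus GFP-naive it was 2.01 ± 0.20 (adjusted p = 3.79e-05). The interaction, the α9k1 difference among crushed groups less that among naive groups, was -2.14 ± 0.42 for Myo1g (adjusted p = 0.0269), and every fit that left out 1 library called it, with values from -2.52 to -1.88, while with a replicate block it was not called (-2.22, adjusted p = 0.124). No other of the 60 members was called in the interaction, where 8 members had an unadjusted p under 0.05 and where 1.35% of all genes were higher and 0.847% lower.

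Macrophage markers were higher in the same 2 comparisons, in each of which 8 of the 11 measured markers were called higher and none lower. The log2 of their summed level ran from 8.03 to 8.57 in GFP-naive, from 9.26 to 9.79 in α9k1-naive, from 9.72 to 10.3 in GFP-crush and from 9.37 to 10.3 in α9k1-crush. At equal covariates none of the 11 markers was called in the interaction, where their median was -0.67, or in α9k1-crush versus GFP-crush. Without covariates 8 of the 11 were lower in the interaction and none higher (median -1.56), the direction of Myo1g, where 16.1% of all genes were lower and 23.3% higher. The part of such cells in the values of Myo1g was not tested.

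Crush with α9 integrin and kindlin-1 was compared as α9k1-crush versus α9k1-naive. Here 4 of 60 members were higher (6.67%), where 4.47% of all genes were, and 3 were lower (5.0%), where 5.27% of all genes were. The cofilin Cfl2, the Arp3 copy Actr3b, Myo1e and Wasf1 rose, and Myo10, Myo3a and the thymosin Tmsb15l fell. The median log2FC was 0.10 over members and 0.00 over all genes. Markers moved here as well, since 4 of 6 of fibroblasts (median log2FC 1.77), 2 of 6 of endothelial cells, 2 of 6 of mural and smooth muscle cells, 2 of 11 of macrophages and 4 of 12 of DRG neurons were higher and none of these was lower. Of the 15 markers of satellite glia and Schwann cells, 4 were higher and 6 lower. The part of these cells in the members' values was not tested.

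Myo10 had α9k1-crush values of 2.92, 2.73, 2.79 and 2.93, more than 1 log2 unit below its lowest value in α9k1-naive. The difference was -2.12 ± 0.45 (adjusted p = 0.0136). The 4 α9k1-crush values of Myo3a were 2.12, 2.82, 2.07 and 2.03, and those in α9k1-naive ran from 4.19 over a median of 4.32 to 4.57. The groups were far apart for Myo3a, with a difference of -1.95 ± 0.43 (adjusted p = 0.0184). Myo10 and Myo3a were thus lower after crush with GFP and with α9k1, and each was called in all 19 fits that left out 1 library in this comparison. Neither was called with a replicate block (-2.34 and -1.43, adjusted p = 0.128 and 0.138), and with only both groups compared Myo10 was not called (-1.54, adjusted p = 0.232). Cfl2 had α9k1-crush values of 6.96, 6.43, 6.80 and 6.61, all above its α9k1-naive values, and a difference of 0.91 ± 0.24 (adjusted p = 0.0376), or 0.93 with an adjusted p of 0.112 without α9k1-naive replicate 4.

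Wasf1 had α9k1-crush values of 5.58, 5.59, 5.82 and 5.59, beside 4.43 to 5.08 in α9k1-naive, without overlap. It differed by 0.95 ± 0.28 (adjusted p = 0.0589). Myo1e had α9k1-crush values of 5.66, 5.50, 5.75 and 5.45 and ran from 3.70 over a median of 4.15 to 4.62 in α9k1-naive, also without overlap. It differed by 1.35 ± 0.39 (adjusted p = 0.0553). Actr3b (chr5:25759997-25850688), a close copy of the Arp3 gene Actr3, had α9k1-crush values of 5.43, 5.10, 5.67 and 5.51. In α9k1-naive Actr3b ran from 4.27 over a median of 4.55 to 4.69, below all of these, and the difference was 1.07 ± 0.30 (adjusted p = 0.0534). Tmsb15l differed by -0.96 ± 0.27 (adjusted p = 0.0545) between means of 8.00 ± 0.15 and 6.91 ± 0.33, but it shares 51.8% of its exon bases with Tmsb15b2 and 26.5% with Tmsb15b1, so that the 3 cannot be told apart well. Wasf1, Myo1e, Actr3b and Tmsb15l were called in 14, 16, 16 and 15 of 19 fits that each left out 1 library, and all missed the threshold without α9k1-naive replicate 4 (0.86, 0.84, 0.92 and -0.95). Neither these genes nor Cfl2 were called with a replicate block or with only both groups compared.

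Cfl2, Wasf1 and Myo1e, higher here, were lower in α9k1-naive versus GFP-naive. Both comparisons use the α9k1-naive libraries, and an error in those would move the differences in opposite directions. Of the 7 members that were higher in α9k1-naive, Myo10 was the only one called here. Actb was at -0.43 ± 0.18 (adjusted p = 0.168), Tpm3 at -0.41 ± 0.19 (adjusted p = 0.219) and Ezr at -0.86 ± 0.32 (adjusted p = 0.133). Without covariates 21 members were called higher and 22 lower, beside 28.5% and 27.1% of all genes, and these 3 were among the lower ones, at -0.47, -0.51 and -0.94.

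The comparison after crush, α9k1-crush versus GFP-crush, addresses how sorted cells with α9 integrin and kindlin-1 differ at the time of axon regeneration that the study reports. In limma at equal covariates none of the 60 members was called in either direction, where 0.728% of all genes were higher and 0.182% lower, and 1 member, Msn, had an unadjusted p under 0.05. The median log2FC was 0.03 over members and 0.01 over all genes. Yet the deposited values of both groups did not overlap for 13 members that were higher and 18 that were lower in α9k1-crush, beside 20.0% and 20.8% of all genes. Without covariates 16 members were called higher (26.7%) and 21 lower (35%), where 29.6% and 28.3% of all genes were called. In the fit without covariates 10 of 15 markers of satellite glia and Schwann cells were lower and 1 higher, 4 of 6 of endothelial cells and 3 of 6 of mural and smooth muscle cells were lower and none higher, and 6 of 12 of DRG neurons were higher and 1 lower, while at equal covariates no marker of these lists was called. The part of these cells in the members' values was not tested.

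Myo5a (chr9:75071015-75223688) had the largest difference of the members whose values did not overlap. Its values were 4.40, 4.67, 3.89 and 4.13 in GFP-crush and 6.27, 5.52, 6.30 and 5.85 in α9k1-crush, while it had 4.87, 5.14, 4.70, 4.77 and 4.92 in GFP-naive and from 4.60 to 5.57 in α9k1-naive. Of the α9k1-crush libraries 3 lay above all those of the other groups, and 3 GFP-crush libraries lay below all others. Means after crush differed by 1.71, whereas the log2FC at equal covariates was 0.41 ± 0.37 (95% confidence interval -0.38 to 1.20, adjusted p = 0.808). The means of Myo1g differed by -1.51, and its log2FC at equal covariates was -0.92 ± 0.44 (-1.87 to 0.03, adjusted p = 0.569).

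Tpm2 had values of 3.14, 3.58, 2.19 and 2.99 in α9k1-crush, below all 4 GFP-crush libraries. The means of Tpm2 differed by -1.30, and at equal covariates the log2FC was -0.29 ± 0.59 (-1.55 to 0.97, adjusted p = 0.935). Tmsb4x had α9k1-crush values of 11.42, 11.75, 11.34 and 11.85, again below every GFP-crush library. Its means differed by -1.14, and at equal covariates the log2FC was 0.01 ± 0.29 (-0.61 to 0.64, adjusted p = 0.994). Myl9 had α9k1-crush values of 4.34, 5.22, 4.22 and 4.84, of which the highest lay just under the lowest GFP-crush value. Its means differed by -1.03, and the log2FC turned to 0.51 ± 0.45 at equal covariates (-0.44 to 1.47, adjusted p = 0.797). These 5 genes were chosen for values that do not overlap, so that a test of the deposited values would restate the choice.

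Msn (chrX:96096042-96168552), which encodes the linker moesin, had values of 6.73, 6.38, 6.52 and 6.54 in GFP-crush and of 7.08, 7.49, 7.45 and 7.64 in α9k1-crush. These groups did not overlap, and the difference was 0.74 ± 0.30 at equal covariates (0.11 to 1.37, adjusted p = 0.46) and 0.87 without. Of Myo5a, Myo1g, Tpm2, Tmsb4x, Myl9 and Msn, Msn moved least between both fits. The covariates differed between both groups, since the third component had a mean of -0.14 ± 0.54 (SD) in GFP-crush and -1.51 ± 0.35 in α9k1-crush, and 74.5% of its variance lay between the 4 groups. With them the variance of this comparison was 3.11 times the residual variance, beside 0.500 without them, 0.654 for α9k1-naive versus GFP-naive and 0.662 for GFP-crush versus GFP-naive. Library quality and the α9k1 effect after crush cannot be told apart well in these libraries, and a missing call does not show that the members were alike.

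**Figure D4:**
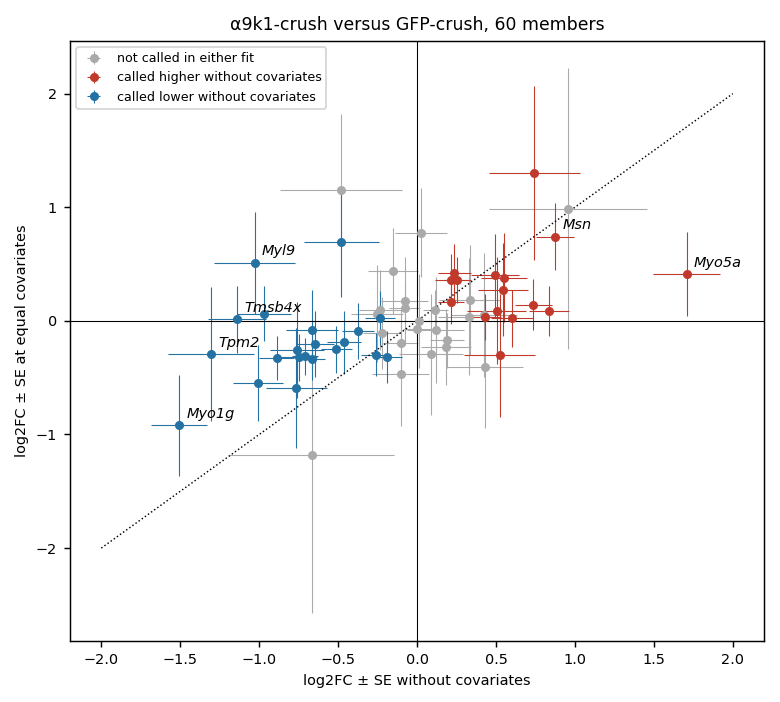
Each point is 1 of the 60 members in α9k1-crush versus GFP-crush, with its log2FC without covariates on the x axis and at equal covariates on the y axis, bars giving the SE. Coloured points were called without covariates (red 16 higher, blue 21 lower), the dotted line marks equal values, and most points lie nearer to 0 on the y axis.

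The 28 members without a call at equal covariates span most roles. They are Pfn2, Cfl1 and Cap1 of the monomer-binding group, the Arp2/3 genes Arpc2, Arpc3, Arpc5, Arpc5l, Actr2 and Actr3, both Ena/VASP genes Enah and Evl, the capping protein subunits Capza1, Capza2 and Capzb, the cofilin kinase Limk2, the tropomyosins Tpm1 and Tpm4, and Msn. Among motors they are Myo18a, Myo1c, Myo1a, Myo15b, Myh9, Myh11, Myh14 and the light chains Myl3, Myl6 and Myl12a. Over these 28 the log2FC ran from -0.72 ± 0.57 (Myo1a) to 0.51 ± 0.35 (Myl3) in α9k1-naive versus GFP-naive and from -0.78 ± 0.31 (Myh11) to 1.23 ± 0.64 (Myo15b) in GFP-crush versus GFP-naive. In the comparisons with α9k1-crush it ran from -0.48 ± 0.17 (Myl6) to 1.84 ± 1.02 (Myo1a) against α9k1-naive and from -1.18 ± 1.39 (Myo15b) to 1.30 ± 0.77 (Myl3) against GFP-crush. The extremes were mostly genes with wide SE. Evl, which lengthens filaments, had means of 5.52 ± 0.15 in GFP-naive, 5.41 ± 0.13 in α9k1-naive, 5.66 ± 0.05 in GFP-crush and 5.58 ± 0.05 in α9k1-crush. For Cfl1, the non-muscle cofilin, the difference of α9k1-naive and GFP-naive was -0.18 ± 0.09 (adjusted p = 0.169), and it was called at -0.26 with quantile-normalized libraries (adjusted p = 0.0637) and at -0.41 without covariates.

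Srf, whose own promoter with 2 CArG boxes is printed above, had values of 2.37, 2.34, 2.36, 2.35 and 2.0 in GFP-naive and from 3.84 over a median of 3.99 to 4.13 in α9k1-naive. In GFP-crush Srf had values of 1.48, 2.18, 1.99 and 1.91, and in α9k1-crush 2.25, 2.26, 1.98 and 1.93. All α9k1-naive libraries lay more than 1 log2 unit above every other library. Srf rose by 1.78 ± 0.16 in α9k1-naive versus GFP-naive (adjusted p = 1.9e-06) and was lower in α9k1-crush versus α9k1-naive (-1.98 ± 0.29, adjusted p = 0.002). It was also called lower in GFP-crush versus GFP-naive (-0.45 ± 0.16, adjusted p = 0.0772), in 12 of 19 fits that each left out 1 library, where it ran from -0.60 to -0.30. The interaction was -1.53 ± 0.34 (adjusted p = 0.043), and it missed the threshold without GFP-crush replicate 2 (-1.14) or α9k1-crush replicate 4 (-1.38). Of the members with a CArG box in the promoter, in α9k1-naive versus GFP-naive Actg1 was higher, Arpc4 and Myo1e were lower, and Myl3, Myl6 and Myl9 were not called. Fhl2, a cofactor of SRF, was lower in α9k1-naive (-0.92 ± 0.30, adjusted p = 0.04), and by -1.48 without α9k1-naive replicate 6.

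Other genes of the actin pathway were followed in a list of small GTPases and kinases, nucleators and WAVE partners, and further binding proteins, of which 66 were measured. In α9k1-naive versus GFP-naive 12 were higher and 8 lower, where 11.4% and 17.6% of all genes were. In GFP-crush versus GFP-naive 7 were higher and 15 lower, beside 7.39% and 15.7% of all genes. In α9k1-crush versus α9k1-naive 2 were higher and 5 lower (4.47% and 5.27% of all genes), and in α9k1-crush versus GFP-crush 1 was higher and none lower (0.728% and 0.182%). Without covariates the counts were 21 and 13 (16.5% and 29.5% of all genes), 11 and 19 (11.0% and 20.1%), 20 and 23 (28.5% and 27.1%) and, after crush, 30 and 15 (29.6% and 28.3%). The median log2FC over the 66 was 0.03, -0.16, -0.09 and 0.11 in this order.

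Of the 19 small GTPases and kinases on the list, 5 were higher and 4 lower in α9k1-naive versus GFP-naive. Rnd3, whose protein counters actomyosin contraction, had values of 5.97, 6.09, 6.29, 6.28 and 5.92 in GFP-naive and from 7.08 over a median of 7.41 to 7.80 in α9k1-naive. In GFP-crush Rnd3 had 5.23, 5.21, 5.59 and 5.37, and in α9k1-crush 6.29, 6.62, 6.15 and 6.66. It was higher with α9k1 than with GFP in every library, both without and after crush, and it was the gene of the 66 called in α9k1-crush versus GFP-crush (1.90 ± 0.36, adjusted p = 0.022). Without α9k1-naive replicate 4 that difference was 1.70 with an adjusted p of 0.109. Rnd3 was also called in α9k1-naive versus GFP-naive (1.38 ± 0.16, adjusted p = 3e-05) and was lower in GFP-crush versus GFP-naive (-0.83 ± 0.17, adjusted p = 0.0053). Its relative Rnd1 was higher in α9k1-naive (1.41 ± 0.21, adjusted p = 0.00025). Rhob and Rhoc were higher in α9k1-naive, by 0.62 ± 0.10 and 0.83 ± 0.16, and lower in both crush comparisons within a virus. In α9k1-crush versus α9k1-naive Rhob was at -0.98 ± 0.19 (adjusted p = 0.0084), and Rhoc, at -1.03 ± 0.29 (adjusted p = 0.0549), was called in 15 of 19 fits that each left out 1 library, missing the threshold without α9k1-naive replicate 1 (-0.94), 2 (-0.99) or 4 (-1.10) or α9k1-crush replicate 4 (-0.96). Rhoa, Rac1 and Rnd2 were not called in α9k1-naive (0.09 ± 0.10, -0.08 ± 0.11 and 0.06 ± 0.14, adjusted p = 0.556, 0.65 and 0.786), and Cdc42 was lower (-0.25 ± 0.08, adjusted p = 0.0489). Rock1, a kinase that activates myosin II, was lower in α9k1-naive (-0.66 ± 0.15, adjusted p = 0.0061).

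Among the further binding proteins, the capping protein gene Capg had values of 6.47, 6.72, 6.82, 6.70 and 6.45 in GFP-naive and from 4.03 over a median of 4.29 to 4.92 in α9k1-naive. After crush Capg had 6.70, 6.58, 6.74 and 6.79 with GFP and 6.59, 6.60, 6.28 and 6.86 with α9k1. The α9k1-naive libraries were therefore the only low ones. Capg differed by -2.33 ± 0.19 without crush (adjusted p = 4.5e-07), and the interaction was 2.47 ± 0.38 (adjusted p = 0.01). The Schwann cell marker Prx was likewise low in α9k1-naive alone, with a mean of 3.67 there, 6.16 in GFP-naive and, after crush, 6.43 with GFP and 6.42 with α9k1. The part of Schwann cells in the Capg values was not tested. Twf1, a twinfilin that binds monomers, rose by 1.81 ± 0.22 in α9k1-naive (adjusted p = 4.4e-05), and the severing protein gene Scin by 2.21 ± 0.42 (adjusted p = 0.0016). Scin was also higher in GFP-crush versus GFP-naive (1.67 ± 0.42, adjusted p = 0.017), as was Lcp1, a bundling protein of white blood cells (1.03 ± 0.18, adjusted p = 0.0023). Lcp1 had means of 5.09 in GFP-naive, 5.44 in α9k1-naive, 5.82 in GFP-crush and 6.72 in α9k1-crush. The part of macrophages in the values of Scin and Lcp1 was not tested.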

How the data were processed

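Per the labels and the study's methods, the authors sorted GFP-positive neurons, made libraries with the SMART-Seq v4 kit, aligned reads to mm10 with STAR, used Salmon for gene counts and Picard for library metrics. The authors deposited log2 values of 12629 genes after removal of genes with low counts, addition of a small pseudocount and cqn normalization for gene length and depth. The deposited table carries no gene names, so its rows were taken in the order of the authors' gene table, which was checked with the average that table holds (Pearson's r over genes of 0.959, and 0.0810 after a shift by 1 row). That table also holds the authors' fold changes and p-values, which were not used. The deposited library metrics are counts of reads and bases, fractions, percentages and ratios, as Picard gives them. Reads lay about equally on both strands, so that genes overlapping on opposite strands cannot be separated.

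All 19 libraries entered 1 limma fit (limma 3.58.1, R 4.3.3) with 4 group means and 3 covariates, the first components of 48 scaled metrics (45.9%, 24.1% and 11.5% of variance). The study's model also has batch, which the labels do not give. The threshold for a call was the study's, 0.1 after Benjamini-Hochberg adjustment over all genes. The fit was also run on simulated normal values, the outcome of which is not given here, and no result above rests on it. Depth per gene is unknown from normalized values, so counting error is held in the SD and SE. Replicates are biological according to the study. Alternatives were a fit without covariates, with only both groups, with a replicate block, median-centred or quantile-normalized libraries, a filter of the 25% of genes with the lowest mean, and each library left out. Members, lists and tests were chosen with earlier results of these data known. The text names both actins, up to 10 called members a direction and comparison, the member with the smallest p of each role and the 5 largest non-overlapping differences after crush. Of each other list and comparison up to 5 called genes were selected, and only part of these are described. Selected but not described were Pak4, Mprip, Pls3, Gmfb, Tmod2, Eps8, Dbn1, Baiap2, Spire1, Spire2, Daam2, Abi1, Abi2, Fhod3 and Nckap1. Msn, Myh11, Cfl1, Myl6b, the extremes of the members without a call, and Arpc4 and Arpc1b in α9k1-naive were named after their values were seen. The values of 1 member, which is in all counts, are not reported here. Exon overlaps came from GENCODE M21 (GRCm38), in which 52 of the 60 members have the same ends as in the deposited table.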

Additional observations from a re-analysis of the deposited data

Results flagged for a closer look

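Among the 32 named members, 5 of 128 groups of values (3.91%) held a library far from the others by Dixon's test at its 95% level, and chance alone gives about 1 in 20. Tpm3 was 6.74 in α9k1-naive replicate 4, beside 6.40 to 6.51 in the other libraries of that group. Gsn was 7.82 in GFP-crush replicate 1, beside 8.39 to 8.48. Wasf1 was 5.82 in α9k1-crush replicate 3, where the others lay between 5.58 and 5.59. Pfn1 was 9.90 in GFP-crush replicate 2, beside 10.08 to 10.11. Myo3a was 2.82 in α9k1-crush replicate 2, beside 2.03 to 2.12.

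The α9k1 effect on Myo1g differed between crush and no crush at equal covariates, with an interaction of -2.14 ± 0.42 (limma, adjusted p = 0.0269). Its group means were low, from 1.37 in GFP-naive to 3.46 in GFP-crush, and the filter on low values removed it. With a replicate block the interaction was not called. The part of macrophages in its values was not tested.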

How the results depend on the processing

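The covariates bear most on α9k1-crush, and the depth behind each gene is unknown from normalized values. Without covariates 10 members were higher and 22 lower in α9k1-naive versus GFP-naive, beside 16.5% and 29.5% of all genes. In α9k1-crush versus GFP-crush 16 were higher and 21 lower (29.6% and 28.3%). In α9k1-crush versus α9k1-naive 21 were higher and 22 lower (28.5% and 27.1%). In the interaction 16 were higher and 15 lower (23.3% and 16.1%). In the fit without covariates Tmsb10 turned to -0.092 between the naive groups, and between the crush groups Tmsb4x turned to -1.14 and Myl9 to -1.03. Of the members called in either fit, 6 in α9k1-crush versus GFP-crush (Tmsb4x, Myl9, Tmsb10, Wasf2, Enah and Arpc5l), 3 in α9k1-crush versus α9k1-naive (Wasl, Pfn1 and Enah) and 1 in α9k1-naive versus GFP-naive (Tmsb10) had opposite signs with and without covariates. With only both groups compared, 2 members were higher and 5 lower in GFP-crush versus GFP-naive (2.07% and 5.24% of all genes), and 0 higher and 1 lower, Myo3a, in α9k1-crush versus α9k1-naive (0.507% and 1.09%), with fewer residual degrees of freedom. Median-centred libraries gave 15 higher members in GFP-crush versus GFP-naive and -0.069 for Tmsb4x after crush. The filter on low values removed Myo1g and left 0 members in the interaction.

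Replicate numbers did not pair the libraries (median correlation of same-numbered deviations 0.02, from -0.27 to 0.15 over 25 pairs, and 3 of 19 libraries closest to their own number). With a replicate block 1 member, Myl3, was higher and 0 lower in α9k1-crush versus α9k1-naive (1.23% and 1.39% of all genes), 0 were called in the interaction (0.150% and 0.0554%) and Tmsb4x after crush was -0.24. In the other 3 comparisons the block left every count of members within 1.5 times.

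Leaving out 1 library at a time gave 5 to 9 higher and 6 to 13 lower members in GFP-crush versus GFP-naive (3.52% to 8.17% and 8.37% to 16.97% of all genes), 0 to 4 higher and 2 to 5 lower in α9k1-crush versus α9k1-naive (2.17% to 6.14% and 2.97% to 7.66%), 5 to 8 higher and 10 to 15 lower in α9k1-naive versus GFP-naive (9.28% to 11.8% and 12.5% to 18.4%), and 0 to 1 higher in the interaction (0.538% to 2.12%). After crush, α9k1 versus GFP, Tmsb4x ran from -0.20 to 0.13 and Tpm2 from -0.49 to 0.086. Of the called members, 12 of 20 in α9k1-naive versus GFP-naive, 10 of 18 in GFP-crush versus GFP-naive and 2 of 7 in α9k1-crush versus α9k1-naive were called in every such fit.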
